A study of Mus musculus with 6 samples.

Results

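Open chromatin of nuclei pulled down from the Nkx2-5 lineage of the newborn mouse heart was compared with that of nuclei that went through no pulldown. The comparison holds 4 of the 6 libraries of the series: 2 Myc libraries and 2 Input libraries, chosen by their labels. Merging the peak lists of these 4 libraries gave 159035 regions, or 103335 when each list was cut to its strongest 75336 peaks, against 169872 regions over all 6 libraries. The remaining 2 libraries, made from PCM1-antibody pulldowns of wild-type hearts, are used here in a few places as a reference.

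All hearts were taken whole at postnatal day 1, and all nuclei were spun through a 2.2 M sucrose cushion before 50000 nuclei went into each library. The Input group was made from wild-type hearts, which the study's methods give as C57BL/6J, and these nuclei were used straight from the cushion. The Myc group came from Nkx2-5 Cre/+; R26RSun1-Myc-Egfp/+ hearts, and its nuclei were pulled down after the cushion with a Myc antibody on magnetic beads (MAN-IP). In these mice Cre is expressed from the Nkx2-5 locus and removes a stop cassette at Rosa26, after which a Myc-tagged SUN1-GFP fusion protein sits in the nuclear membrane. Every descendant of an Nkx2-5-expressing cell keeps the tag, so that the tag marks a lineage and not cells that express Nkx2-5 at postnatal day 1. Antibody pulldown and, by the labels, genotype differ between the groups together and cannot be told apart. The study's methods name the tag line with a mixed strain background. Strain may thus differ between the groups as well, and it cannot be told apart from pulldown and genotype. The study's text could also be read as taking Input from an aliquot of the nuclei used for the pulldowns, of either genotype, and the labels were followed here. The study chose this cushion to favour cardiomyocyte nuclei. The 2 libraries per group are labelled as independent biological replicates. The labels do not give the sex of the hearts or how many hearts went into a library.

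Nkx2-5 is a homeodomain transcription factor of the early heart fields, and its lineage contributes cardiomyocytes as well as smooth muscle and endothelial cells of the heart. ATAC-seq uses the Tn5 transposase, which inserts sequencing adapters into DNA that is not wrapped tightly in nucleosomes, so that promoters and enhancers in use appear as peaks of insertions. The promoters of broadly used genes are open in most cell types, whereas enhancers and the bodies of cell type-specific genes are open mainly in the cells that use them. In a cardiomyocyte, the sarcomere genes are held open by factors such as GATA4, MEF2, TBX5, MEIS1 and NKX2-5 itself.

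The sequences below show the sites that the results turn on. Each is the 200 bases centred on the strongest summit of its region, from the RefSeq sequence of GRCm38 (mm10). Capitals mark matches to the letters AAGTG (read by NKX factors), AGATAA (read by GATA factors), CAGCTG (the MyoD-type E-box), TGACAG (MEIS/PBX), TATTTNNNA (MEF2), CCGGAA (ETS) and AGGGGGC (the CTCF core) on either strand, and none of these motifs contains another. Of the 200-base windows of all merged regions, 40.5% held the NKX letters, 12.1% GATA, 20.1% the E-box, 20.02% MEIS/PBX, 10.2% MEF2, 5.28% ETS and 5.59% the CTCF core. A promoter label means a region within 3 kb of an annotated transcript's start. The first 4 are sites in sarcomere genes that ranked lower in Myc, the next 3 are sites in mitosis genes that ranked higher in Myc, and the last 3 are among the sites furthest apart between the groups in all the genome.
Myh7 promoter, chr14:54994933-54995132, plus strand: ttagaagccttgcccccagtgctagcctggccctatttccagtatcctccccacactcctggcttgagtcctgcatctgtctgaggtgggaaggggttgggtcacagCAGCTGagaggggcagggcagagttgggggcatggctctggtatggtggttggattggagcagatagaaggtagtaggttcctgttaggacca
Tpm1 promoter, chr9:67047012-67047211, plus strand: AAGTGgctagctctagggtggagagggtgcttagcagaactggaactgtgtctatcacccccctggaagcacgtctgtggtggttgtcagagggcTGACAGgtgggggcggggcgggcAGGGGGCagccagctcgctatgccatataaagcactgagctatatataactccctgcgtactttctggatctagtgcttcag
Ttn exon, chr2:76898921-76899120, plus strand: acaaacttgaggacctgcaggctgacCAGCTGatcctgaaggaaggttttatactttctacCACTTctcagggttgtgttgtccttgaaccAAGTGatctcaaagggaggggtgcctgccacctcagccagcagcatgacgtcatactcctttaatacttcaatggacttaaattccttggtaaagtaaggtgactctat
Myh6, chr14:54956681-54956880, plus strand: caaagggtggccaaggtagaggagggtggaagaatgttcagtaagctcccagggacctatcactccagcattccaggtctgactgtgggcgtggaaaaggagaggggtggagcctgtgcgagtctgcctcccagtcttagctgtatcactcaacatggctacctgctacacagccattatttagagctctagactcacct
Ccnb2 intron, chr9:70408896-70409095, plus strand: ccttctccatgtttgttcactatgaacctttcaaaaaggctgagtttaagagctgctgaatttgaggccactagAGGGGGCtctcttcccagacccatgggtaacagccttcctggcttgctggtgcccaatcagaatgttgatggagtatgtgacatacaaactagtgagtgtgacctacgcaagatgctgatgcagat
Cdk1, chr10:69351187-69351386, plus strand: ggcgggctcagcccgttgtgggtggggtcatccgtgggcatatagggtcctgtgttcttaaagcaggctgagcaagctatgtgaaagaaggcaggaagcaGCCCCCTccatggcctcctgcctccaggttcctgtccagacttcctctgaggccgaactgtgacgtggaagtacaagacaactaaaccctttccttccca
Top2a promoter, chr11:99024262-99024461, plus strand: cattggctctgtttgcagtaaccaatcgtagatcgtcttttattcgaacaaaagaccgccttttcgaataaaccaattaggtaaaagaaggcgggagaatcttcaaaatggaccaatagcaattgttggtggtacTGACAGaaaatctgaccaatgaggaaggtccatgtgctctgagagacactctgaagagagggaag
Samd9l promoter, chr6:3399414-3399613, plus strand: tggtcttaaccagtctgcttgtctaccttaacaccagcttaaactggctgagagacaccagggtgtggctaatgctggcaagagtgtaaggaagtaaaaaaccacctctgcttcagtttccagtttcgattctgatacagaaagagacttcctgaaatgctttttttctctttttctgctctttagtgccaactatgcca
Fmn1, chr2:113478552-113478751, plus strand: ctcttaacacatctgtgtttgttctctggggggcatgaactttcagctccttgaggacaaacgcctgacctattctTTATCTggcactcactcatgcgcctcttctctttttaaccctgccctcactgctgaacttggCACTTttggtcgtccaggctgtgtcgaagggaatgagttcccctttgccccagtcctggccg
Cd101 exon, chr3:101012375-101012574, plus strand: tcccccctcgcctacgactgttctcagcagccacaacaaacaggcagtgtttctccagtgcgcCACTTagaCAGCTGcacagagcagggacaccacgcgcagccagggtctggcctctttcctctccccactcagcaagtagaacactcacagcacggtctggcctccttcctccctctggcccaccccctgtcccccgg

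A further window is shown because it holds a tRNA gene, here in capitals, and ranked higher in Myc. RefSeq places this tRNA-Gly gene on the minus strand.
tRNA-Gly (n-TGgcc5), chr11:69118779-69118978, plus strand: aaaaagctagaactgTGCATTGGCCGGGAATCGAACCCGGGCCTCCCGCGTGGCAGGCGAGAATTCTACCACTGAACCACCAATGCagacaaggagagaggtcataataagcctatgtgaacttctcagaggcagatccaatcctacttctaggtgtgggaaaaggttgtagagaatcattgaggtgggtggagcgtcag

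The measure in each library is its own peak list. Input replicates 1 and 2 held 131500 and 75336 peaks, and Myc replicates 1 and 2 held 107216 and 108513. The background pileup that the peak caller used, which rises with the number of reads, was 3.96 and 1.02 in Input and 1.44 in both Myc libraries. Input replicate 1 was thus 2.75 times as deep as either Myc library, and Input replicate 2 was the shallowest of the 4. To set the libraries on one scale, peaks were ranked by significance (the −log10 q) within the strongest 75336 of each library and the rank was written as a percentile, where 100 is the strongest peak and 0 means no peak. Beside a percentile, no peak means none among these 75336. A region or gene is called higher in Myc when both Myc libraries lie above both Input libraries, and lower when both lie below. With 2 libraries against 2, the smallest two-sided p that an exact permutation test can reach is 0.33, so no p-values are given and each count is set beside the share called over all regions or genes.

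Most of what was open in one group was open in the other. Of the 159035 regions, 60493 (38.0%) held a peak in all 4 libraries. Both Myc libraries and neither Input library had a peak at 4062 regions (2.55% of all regions, 4.85% of the 83737 with a peak in both Myc libraries). Both Input libraries and neither Myc library had a peak at 3253 regions (2.05% of all regions, 4.67% of the 69620 with a peak in both Input libraries). Larger numbers split within a group, with 64446 regions (40.5%) found in 1 of the 2 Input libraries and 44263 (27.8%) in 1 of the 2 Myc libraries. By construction, a region of Myc alone had no peak in Input replicate 1, the deepest library, and a region of Input alone had a peak in Input replicate 2, the shallowest. At the equal number of peaks, 3945 regions (3.82%) were of Myc alone and 3728 (3.61%) of Input alone, while 50693 (49.1%) were in all 4. In libraries made from many nuclei, a site open in fewer nuclei and a site less open in each nucleus cannot be told apart.

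Regions of 1 group alone were weaker, narrower and further from genes' starts than regions of all 4 libraries. In distance, Input alone lay near the value of all merged regions. Their median width was 309 bp for Myc alone and 338 bp for Input alone, against 592 bp for regions of all 4 libraries and 379 bp for all merged regions. Taking each region's best library, the median percentile at the equal number of peaks was 30.3 for Myc alone and 31.8 for Input alone. It was 73.6 for regions of all 4 and 47.9 for all merged regions. The median distance to a protein-coding transcription start site (TSS) was 45.4 kb for Myc alone and 37.1 kb for Input alone. It was 24.1 kb for regions of all 4 and 35.3 kb for all merged regions. Introns held 38.1% of the Myc-alone and 43.3% of the Input-alone regions, distal intergenic sequence held 34.1% and 24.6%, and promoters (within 3 kb of a TSS) held 21.1% and 23.5%. Promoters took 39.9% of the regions found in all 4 libraries. Of all merged regions, introns held 36.9%, distal intergenic sequence 27.2% and promoters 28.5%. The PCM1 libraries, from pulldowns of hearts labelled as wild type, had a peak at 13.7% of the Myc-alone regions in both replicates. Of the Input-alone regions they had a peak at 29.3% and 28.5%. At the equal number of peaks these shares were 27.0% and 27.9% against 51.5% and 50.1%. PCM1 peaks were not counted over all merged regions, so these shares have no background, and what sets them apart was not tested.

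By rank, 21311 of the 103335 regions (20.6%) were higher in Myc and 20347 (19.7%) were lower. In 7566 and 7789 of these, the nearest libraries of the 2 groups lay 10 or more points apart. In regions present in all 4 libraries, the median absolute difference was 5.08 points between the Input replicates, 5.48 points between the Myc replicates and 6.67 points between the group means. The first 2 values compare single libraries and the last compares means of 2, so they are not on one scale.

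The higher calls gathered at gene starts. Of the 9514 regions whose summit lay within 200 bp of a protein-coding TSS, 4210 (44.3%) were higher in Myc and 1581 (16.6%) were lower. Between 0.2 and 1 kb the shares were 28.3% and 19.6%, and between 1 and 3 kb they met at 20.6% and 20.3%. Beyond that the order turned, with 19.0% higher and 21.6% lower at 3 to 10 kb and 17.9% higher and 20.9% lower at 10 to 50 kb. Introns stood at 15.2% higher and 20.7% lower over 35127 regions. Distal intergenic regions went the other way, with 20.2% higher and 17.3% lower over 26683 regions. With all peaks in place of the equal number, regions within 200 bp of a TSS were higher in 31.8% and lower in 7.94%, but the order did not turn further away: 12.2% were higher and 10.1% lower at 3 to 10 kb, 11.5% and 9.55% at 10 to 50 kb, and 9.99% and 9.39% in introns.

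**Figure D1:**
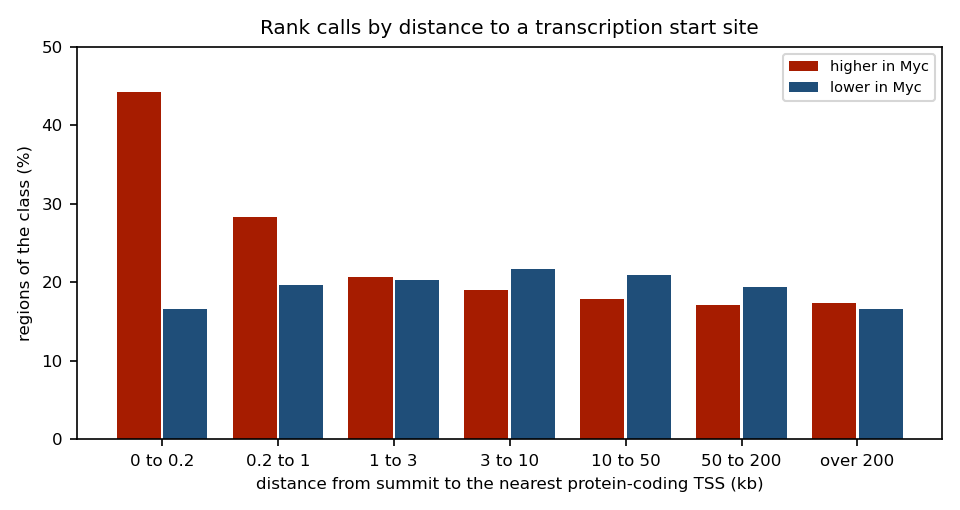
Bars give the percent of merged regions whose rank was higher (red) or lower (blue) in both Myc libraries than in both Input libraries, in classes of distance from the region's summit to the nearest protein-coding TSS in kb. At the equal number of peaks shown, 44.3% were higher and 16.6% lower within 0.2 kb, and from 3 to 200 kb the lower share was the larger.

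For genes, the value was the percentile of the strongest peak in a span from 2 kb before the gene to 2 kb after it. Of 21911 protein-coding genes, 6513 (29.7%) were higher in Myc and 3623 (16.5%) were lower, and 5057 had no peak among the strongest 75336 of any library, a number that was 4345 over all peaks. Among the 15426 genes with a peak in every library, 6262 (40.6%) were higher and 3417 (22.2%) were lower, with a median difference of 0.80 points (Myc minus Input). When only peaks within 1 kb of a TSS counted, 5891 genes (26.9%) were higher and 2408 (11%) were lower. Each gene list below is read against these shares. Unless said otherwise, percentiles in a sentence run from Input replicate 1 and 2 to Myc replicate 1 and 2.

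**Figure D2:**
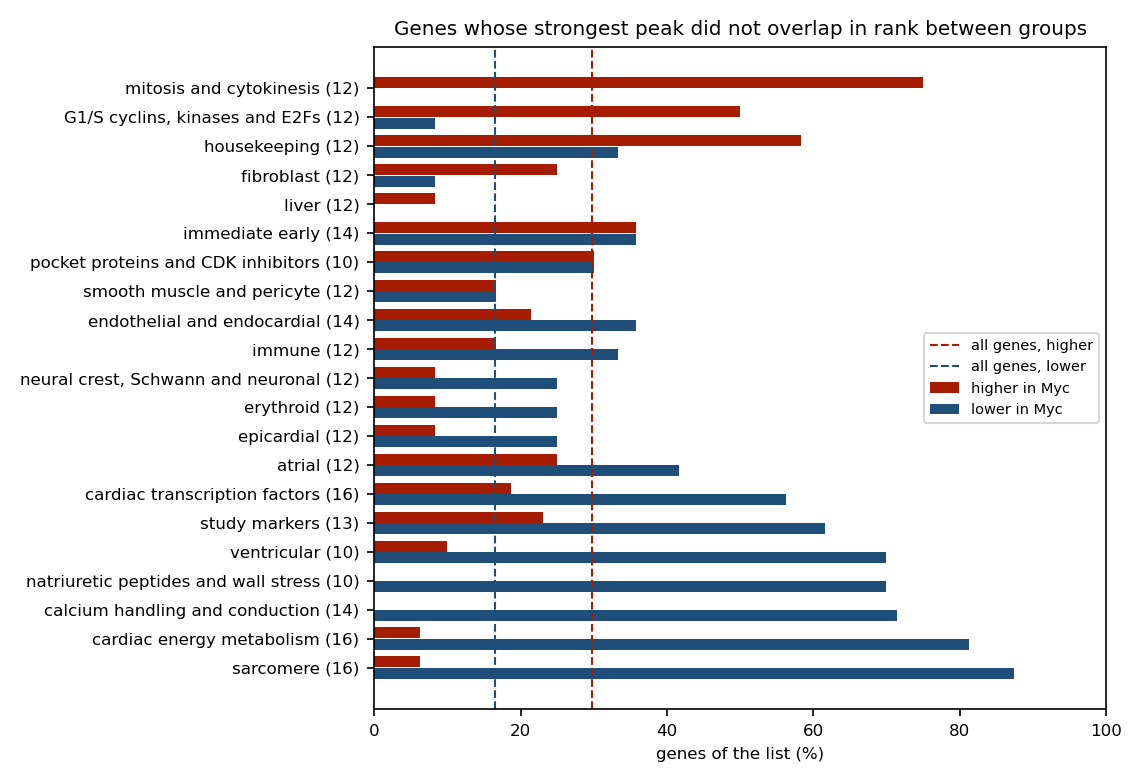
Bars give the percent of genes of each list whose strongest peak ranked higher (red) or lower (blue) in both Myc libraries than in both Input libraries, with the number of genes in parentheses and dashed lines for all protein-coding genes. The sarcomere list has the longest blue bar, 14 of 16 genes, and the mitosis list the longest red bar, 9 of 12 genes.

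Genes the study used as cell type markers were looked at first, with its reference gene Gapdh and with Nkx2-5, Pcm1 and Sun1. Of these 13 genes, 8 were lower in Myc and 3 higher. The cardiomyocyte markers Tnnt2, Myh6 and Pln had peaks in every library but ranked lower in Myc. Tnnt2, cardiac troponin T of the thin filament, was at 96.2 and 97.3 in the Input libraries and 89.0 and 90.2 in the Myc libraries. Acta2, smooth muscle actin, was higher in Myc at 70.8 and 65.3 in Input against 77.6 and 81.9 in Myc. Pecam1, an adhesion receptor of endothelial cells, was lower at 97.0 and 96.8 in Input against 93.4 and 91.8 in Myc, and Col1a1, a collagen chain of fibroblasts, was higher at 77.1 and 74.2 in Input against 82.8 and 82.1 in Myc, an order that turned to a mean difference of -4.15 points when peaks up to 10 kb from the gene counted. Col3a1, a second fibroblast collagen, overlapped at 31.1, 55.8, 31.0 and 44.0. For the epicardial genes Wt1 and Upk1b the order differed: Wt1, a transcription factor, overlapped between the groups at 61.5, 63.0, 53.0 and 67.5, while Upk1b, a membrane protein, was lower in Myc at 44.1, 64.2, 42.2 and 34.7. Nkx2-5 was lower in Myc, at 95.9, 95.9, 88.2 and 90.5. Its strongest peak lay 3485 bp downstream of the gene's TSS in both Input libraries and Myc replicate 1, and 3418 bp downstream in Myc replicate 2. Pcm1, whose protein surrounds the cardiomyocyte nucleus, was higher in Myc at 96.1, 96.8, 97.9 and 98.8, and the metabolic enzyme gene Gapdh was lower at 95.2, 97.0, 94.6 and 94.5. Input nuclei also came through the cushion chosen to favour cardiomyocytes, so ranks against Input cannot check the cell type of the Myc libraries. The Myc libraries are called by their antibody here and not by a cell type.

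Sarcomere genes, which code for the contractile filaments, formed the list with the most lower calls: 14 of 16 were lower in Myc and 1 was higher, with a median difference of -7.98 points. Myh6, the alpha-myosin heavy chain, stood at 98.2 and 98.7 in the Input libraries and 84.1 and 89.3 in the Myc libraries. Myh7, the beta heavy chain that dominates the fetal ventricle, stood at 98.2 and 98.2 in Input against 83.6 and 87.8 in Myc. The 2 genes are neighbours on chromosome 14, and in Input replicate 1 both values come from the same peak, at the start of Myh6.

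The thin filament followed the same order. Actc1, cardiac alpha-actin, was at 94.3 and 96.2 in Input against 79.4 and 84.8 in Myc. Tnnc1 and Tnni3, the calcium-binding and inhibitory subunits of troponin, were at 97.5, 98.5, 86.0 and 89.4 and at 95.5, 96.3, 86.5 and 86.4. In each of these genes the higher Myc library lay below the lower Input library.

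Thick-filament and Z-disc genes were lower as well. Mybpc3, myosin-binding protein C, was at 94.2, 94.4, 82.1 and 82.1. The ventricular light chains Myl2 and Myl3 were at 96.4, 95.3, 85.6 and 89.2 and at 94.3, 96.4, 88.0 and 84.9. Actn2, the actin-anchoring alpha-actinin of the Z-disc, was at 96.8, 96.7, 91.3 and 92.3, and Ldb3, another Z-disc protein, at 96.9, 98.0, 91.4 and 92.9. In none of these genes did the groups overlap. Actn2 turned to higher in Myc when only peaks within 1 kb of a TSS counted, at 81.9, 82.9, 83.9 and 85.5.

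Ttn, the giant spring protein titin, was closer at 92.2, 94.2, 88.0 and 89.4, and Tpm1, tropomyosin, at 97.4, 97.1, 95.9 and 92.8. Csrp3, a mechanosensor of the Z-disc, had the lowest Input ranks of the lower genes at 86.8, 87.2, 77.2 and 81.8. Nebl, coding for nebulette, overlapped between groups at 82.6, 85.6, 85.1 and 82.9. Myom1, coding for the M-band protein myomesin, was the one higher gene at 97.5, 97.2, 99.2 and 97.7, and its mean turned to lower when peaks were ranked by fold enrichment.

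The order held along the genes and not at their strongest peak alone. Of 129 regions in sarcomere genes, 74 (57.4%) were lower in Myc and 10 (7.75%) higher, where regions in all protein-coding genes gave 21.1% and 20.7%. Within 1 kb of a TSS, 85.7% of 21 sarcomere regions were lower and 9.52% higher, whereas 17.4% of such regions over all genes were lower and 39.9% higher. Of the remaining 108 regions, 51.9% were lower. By genes, when only peaks within 1 kb of a TSS counted, 12 of 16 sarcomere genes were lower and 2 higher. The Myh7 promoter region printed above, with a summit 407 bp upstream of the TSS, stood at 42.4 and 40.5 in Input and had no peak in either Myc library. The Tpm1 region printed above has its summit 2294 bp downstream of the gene's TSS. It was at 83.4 and 84.9 in Input and at 1.23 and 46.8 in Myc, so the Myc libraries were far apart there. Within 1 kb of the TSS, Tpm1's strongest peak was at 97.4, 97.1, 95.9 and 92.8. The exonic Ttn region was at 31.3 and 36.9 in Input, and the Myh6 region, 10146 bp from the TSS, at 46.2 and 30.3, with no Myc peak in either.

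**Figure D3:**
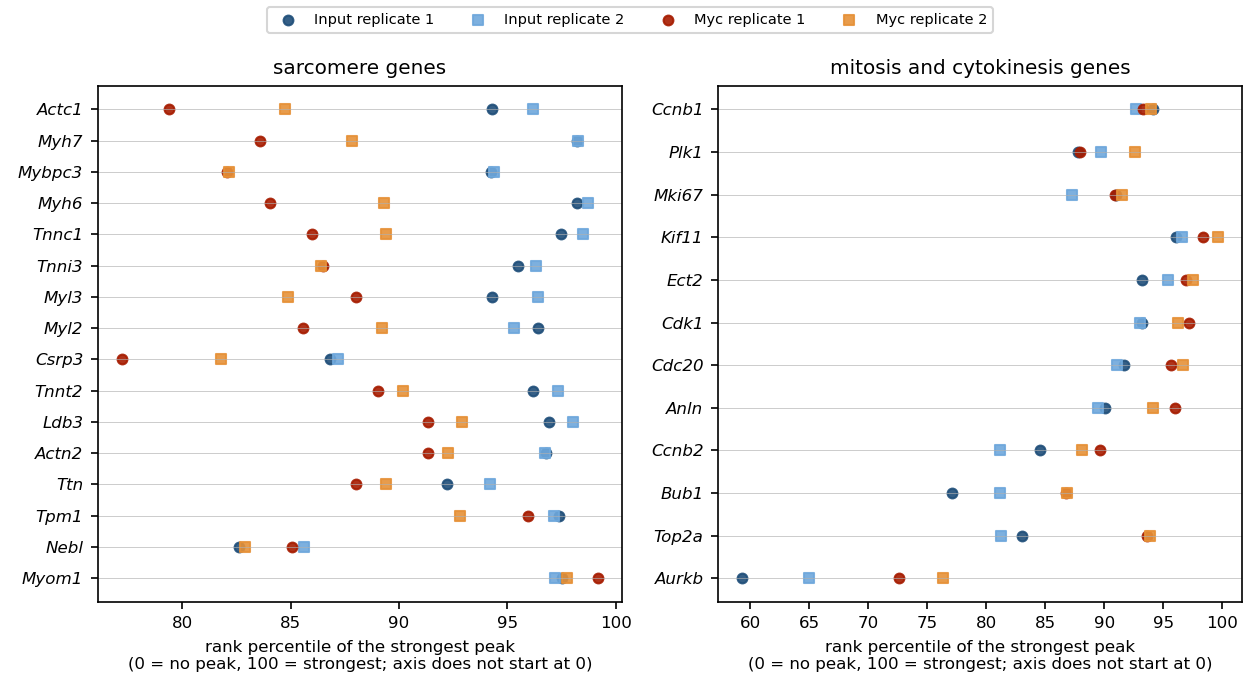
Each point is the rank percentile of a gene's strongest peak in 1 library (blue for Input, red and orange for Myc; circles for replicate 1 and squares for replicate 2), for the 16 sarcomere genes at left and the 12 mitosis genes at right. The Myc points lie left of the Input points for 14 sarcomere genes, and right of them for 9 mitosis genes.

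Other cardiomyocyte lists moved with the sarcomere. Calcium handling and conduction genes were lower in 10 of 14 and higher in 0, with a median of -3.99 points. Hcn4, the pacemaker channel, was at 90.7 and 90.7 in Input against 79.7 and 76.2 in Myc. Gja5, a gap junction protein of the atria and conduction system, was at 98.6 and 98.4 in Input against 88.2 and 91.0 in Myc. For both genes the order rested on peaks away from the start, since peaks within 1 kb of a TSS gave the opposite sign. Slc8a1, the sodium-calcium exchanger, stood at 93.9, 95.2, 83.7 and 86.7 and Ryr2, the release channel of the sarcoplasmic reticulum, at 92.9, 92.5, 87.9 and 89.2. Within 1 kb of a TSS, the groups overlapped for Ryr2, at 87.0, 89.1, 87.9 and 89.2. Pln, the brake on the calcium pump, was lower by a small margin at 84.6, 87.4, 82.6 and 84.3, and Atp2a2, the pump itself, overlapped. Of 252 regions in these genes, 37.7% were lower and 4.37% higher, beside 21.1% and 20.7% of the regions in all protein-coding genes. Of the 252, 22 were of Input alone and 1 of Myc alone, beside 2476 and 2108 of the 66432 regions in all protein-coding genes.

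Energy metabolism genes of the heart were lower in 13 of 16 and higher in 1, with a median of -4.41 points. Ckm, the muscle creatine kinase, was at 98.1 and 98.5 in Input against 89.4 and 91.3 in Myc, but its peaks within 1 kb of a TSS were higher in Myc on average. Cpt1b, which brings fatty acids into mitochondria, was at 97.1 and 97.9 in Input against 91.3 and 90.8 in Myc, and Lpl, which frees them from lipoproteins, at 95.0 and 94.4 in Input against 87.6 and 88.6 in Myc. Ppargc1a, a coactivator of mitochondrial genes, was at 93.0, 93.5, 87.3 and 86.2. Hadha, an enzyme of fatty acid oxidation, was the exception and rose in rank, at 86.2, 83.4, 92.3 and 91.8.

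Natriuretic peptide and wall stress genes were lower in 7 of 10 and higher in 0, with a median of -6.46 points. Nppb, brain natriuretic peptide, stood at 90.6 and 90.7 in Input against 79.8 and 79.8 in Myc. Fhl2, a cofactor enriched in heart muscle, stood at 95.6 and 95.5 in Input against 81.8 and 86.6 in Myc. Of 54 regions in these genes, 51.9% were lower and 7.41% higher, close to the sarcomere shares.

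Cardiac transcription factors were split, with 9 of 16 lower, 3 higher and a median of -2.28 points. Myocd, the coactivator of SRF, was at 98.6 and 98.7 in Input against 90.6 and 92.9 in Myc, and Gata6, a zinc finger factor of heart and vessels, at 94.7 and 93.2 in Input against 85.6 and 90.2 in Myc. Tbx20 was at 98.2, 99.2, 95.4 and 95.1 and Gata4, an activator of sarcomere genes, at 90.9, 91.7, 90.5 and 87.4. Prox1, a homeobox factor of heart muscle and lymphatic endothelium, was higher at 69.9, 74.1, 82.5 and 79.2. Hand2, a basic helix-loop-helix factor of the right ventricle, was higher at 82.5, 77.0, 86.2 and 87.1, and Tbx2, a repressor in the atrioventricular canal, at 70.6, 65.3, 74.1 and 70.7. Ranked by fold enrichment, all 3 turned to lower on average. Tbx5, Srf and Isl1 overlapped between groups, and Hand1 had no peak among the strongest 75336 of any library.

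Chamber genes followed in part. Of 10 ventricular genes, 7 were lower and 1 higher, with a median of -3.98 points. Irx4, a ventricular homeobox factor, was at 70.1, 75.1, 63.3 and 35.8, and Pkp2, a desmosome protein, at 96.0, 97.0, 93.1 and 92.3. Mycn, a driver of ventricular wall growth, was higher at 75.9, 81.7, 89.8 and 87.0. Of 12 atrial genes, 5 were lower and 3 higher, with a median of -1.80 points. Myl7, the atrial light chain, had Input values of 33.4 and 40.6 and no peak among the strongest 75336 of either Myc library. Kcnj5, an atrial potassium channel, was lower at 98.1, 97.8, 95.8 and 95.4, whereas Nr2f1, a nuclear receptor of atrial identity, was higher at 61.5, 62.3, 66.4 and 68.8, an order that turned when ranked by fold.

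Lists of other heart cell types had medians nearer to 0 than the sarcomere list. Of 14 endothelial and endocardial genes, 5 were lower and 3 higher (median -2.03 points). Eng, a TGF-beta co-receptor, was lower at 84.6, 81.5, 78.8 and 76.7. Emcn, an endothelial sialomucin, was higher at 27.5, 20.2, 56.3 and 57.1, as was Sox17, an arterial transcription factor, at 17.6, 0.408, 36.3 and 40.1. Of 12 smooth muscle and pericyte genes, 2 were lower and 2 higher (median 1.18 points). Mcam, an adhesion molecule of pericytes, was higher at 55.4, 47.0, 63.5 and 63.2, and Smtn, a contractile protein, lower at 96.2, 97.5, 94.2 and 95.5.

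Fibroblast genes were higher in 3 of 12 and lower in 1, with a median of 1.12 points. Pdgfra, a growth factor receptor of fibroblasts, was higher at 77.9, 71.0, 84.9 and 85.0. Fbln1, a matrix protein, was lower at 81.1, 83.6, 80.5 and 77.7, but higher on average when ranked by fold. Of 12 epicardial genes, 3 were lower and 1 higher (median -1.68 points), with the keratin gene Krt19 at 58.9, 51.2, 18.8 and 26.9 and the factor gene Tbx18, the higher one, at 85.0, 83.9, 87.5 and 85.5, an order that turned when ranked by fold. For Pecam1, Eng, Smtn, Krt19 and Upk1b, peaks within 1 kb of a TSS gave a mean that was higher in Myc, so their lower ranks rest on peaks further from the start.

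Blood and non-cardiac lists held many genes with weak peaks or none. Of 12 immune genes, 4 were lower and 2 higher with a median of 0. Cx3cr1, among the lower genes, shared its values of 96.8, 97.3, 95.4 and 95.6 with Xirp1 of the wall stress list. The same peaks thus count in both lists, and Cx3cr1 had no peak within 1 kb of its TSS in any library. C1qa, a complement protein of macrophages, was at 25.8 and 49.1 in Input with no peak in Myc, and Csf1r, the macrophage growth factor receptor, was at 35.6, 52.6, 28.6 and 7.26. Spi1, a myeloid transcription factor, was higher at 87.0, 85.6, 88.9 and 88.5, but lower for peaks within 1 kb of a TSS. Of 12 erythroid genes, 6 had no peak in any library, 3 were lower and 1, Klf1, a regulator of globin genes, was higher at 88.4, 86.3, 88.7 and 90.5. Of 12 neural crest, Schwann and neuronal genes, 3 were lower and 1 higher, with Sox10, a neural crest factor, at 10.3 and 32.4 in Input and no peak in Myc. Of 12 liver genes, 7 had no peak, 1 (Ttr, transthyretin) was higher and 0 were lower.

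Mitosis and cytokinesis genes formed the list with the most higher calls: 9 of 12 were higher in Myc and 0 were lower, with a median difference of 4.19 points. Top2a, the topoisomerase that untangles chromosomes, was at 83.0 and 81.2 in the Input libraries and 93.6 and 93.9 in the Myc libraries. Aurkb, a kinase of the chromosome passenger complex, was at 59.3 and 65.0 in Input against 72.6 and 76.3 in Myc, and Bub1, a spindle checkpoint kinase, at 77.1 and 81.2 in Input against 86.8 and 86.8 in Myc. The mean of Aurkb turned to lower when ranked by fold, where 5 of the 12 genes were higher, beside 4426 of all 21911 genes. By rank of significance, in all 3 the groups stood 5 or more points apart at their nearest libraries.

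Cdk1, the kinase that starts mitosis, was at 93.2, 93.0, 97.2 and 96.2 and its partner Ccnb2 (cyclin B2) at 84.6, 81.2, 89.6 and 88.2. Cdc20, which triggers anaphase, was at 91.7, 91.1, 95.6 and 96.7 and Kif11, a spindle motor, at 96.1, 96.6, 98.4 and 99.6. The cytokinesis genes Anln, an actin-binding scaffold, and Ect2, an activator of the contractile ring, were at 90.0, 89.4, 96.0 and 94.1 and at 93.2, 95.4, 96.9 and 97.5. Mki67, the common proliferation marker, overlapped at 91.0, 87.3, 90.9 and 91.5, as did Ccnb1 and Plk1.

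For all 12 genes the strongest peak lay within 1 kb of a TSS, the class of regions with the most higher calls over all genes. The list held 18 regions, of which 12 (66.7%) were higher and 0 lower, against 20.7% higher and 21.1% lower for regions in all protein-coding genes. Of its 12 regions within 1 kb of a TSS, 75% were higher and 0 lower, against 39.9% higher and 17.4% lower for such regions over all genes. The Top2a promoter region, with a summit 173 bp upstream of the TSS, stood at the values given for the gene. The Ccnb2 intronic region printed above was at 0 and 1.64 in Input and 25.4 and 38.2 in Myc, and the Cdk1 region, 1651 bp downstream of the TSS, was at 9.34 and 0 in Input and 24.1 and 25.9 in Myc, so both were weak peaks.

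G1/S cyclins, kinases and E2Fs were higher in 6 of 12 and lower in 1, with a median of 0.60 points. E2f2, an activator of S-phase genes, was at 77.5, 73.6, 83.7 and 82.4. Its mean difference turned to -3.77 points when peaks up to 10 kb from the gene counted. Ccnd2, cyclin D2, was at 77.6, 77.0, 81.1 and 82.7. The mean of Ccnd2 was lower in Myc for peaks within 1 kb of a TSS, where the groups overlapped. Ccne1, cyclin E1, was lower at 99.3, 99.5, 98.7 and 98.0. Of 10 pocket protein and CDK inhibitor genes, 3 were higher and 3 lower: Cdkn2a, the p16 and p19 gene, was higher at 65.0, 63.6, 80.8 and 80.9, its neighbour Cdkn2b (p15) higher at 81.9, 76.0, 86.2 and 87.0, and Cdkn1c (p57) lower at 93.6, 94.4, 92.1 and 87.6. The 2 higher and neighbouring genes lie in one locus and are not independent.

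Housekeeping genes were higher in 7 of 12 and lower in 4, so that both shares stood above those of all genes with a peak in every library. Rps18, a ribosomal protein, was higher at 91.8, 91.7, 97.1 and 97.4 and Polr2a, the large subunit of RNA polymerase II, higher at 93.9, 93.4, 98.3 and 98.3. Actb, cytoplasmic actin, was lower at 97.6, 97.5, 93.4 and 94.8. Immediate early genes, which respond within minutes to stress and handling, were higher in 5 and lower in 5 of 14: Egr2 was at 74.5, 84.9, 92.3 and 92.7, Fosb at 91.4, 91.5, 95.1 and 96.0, Egr1 at 95.7, 95.7, 92.8 and 93.8 and Atf3 at 99.1, 98.7, 97.0 and 97.1.

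Genes for tRNA, which RNA polymerase III transcribes from promoters inside the gene, were the other group with many higher calls. They were looked at after a promoter region among those with the widest gap, near Hes7, turned out to hold a tRNA gene, so these shares are a description. Of 156 regions that overlap a RefSeq tRNA gene, 109 (69.9%) were higher in Myc and 8 (5.13%) were lower, beside 20.6% and 19.7% of all regions. Their median percentiles were 69.8 and 66.4 in Input and 80.0 and 80.6 in Myc. Away from protein-coding genes, more than 1 kb from a TSS, 90 of 125 (72%) were higher and 4 (3.2%) lower. On chromosome 13, which carries the large tRNA cluster, 32 of 43 were higher and 1 lower, and on the other chromosomes 77 of 113 were higher and 7 lower.

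The tRNA order spread over many amino acids. Among regions that hold a single tRNA gene, all 8 tRNA-Glu regions, 6 of 7 tRNA-Lys regions, 8 of 10 tRNA-Ser regions and 7 of 14 tRNA-Arg regions were higher. The tRNA-Gly region printed above, near Hes7, was at 0 and 0 in Input and 74.8 and 66.7 in Myc. Near-identical copies of tRNA genes share reads, so values of single copies are uncertain. When ranked by fold enrichment in place of significance, 39.1% were higher and 10.9% lower, beside 18439 higher and 19816 lower of all 103335 regions. Other short RNA genes stood nearer to the background: 37.9% of 58 snoRNA regions, 31.0% of 42 snRNA regions and 30.4% of 125 miRNA regions were higher, and 13.8%, 26.2% and 23.2% were lower.

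Over all protein-coding genes, the 8 widest gaps in each direction fell on genes with a weak peak or none in 1 of the groups. Ccl28, a chemokine, was at 5.64, 0, 73.1 and 74.1. Samd9l, an interferon-induced gene on chromosome 6, had no Input peak and stood at 61.5 and 63.6 in Myc, with its summit 58 bp from the TSS in Myc replicate 1. Pf4, platelet factor 4, was at 17.98 and 0 in Input and 64.6 in both Myc libraries, and Trim30d, a member of a TRIM gene cluster on chromosome 7, had no Input peak and stood at 59.5 and 47.9 in Myc. Glod5 on the X chromosome stood at 64.3 and 54.8 in Myc with no Input peak. The other 3 were the predicted or uncharacterized genes Gm1604a, 4930522H14Rik and Gm281.

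In the lower direction, Ppl, coding for the desmosome protein periplakin, was at 59.0 and 70.3 in Input with no Myc peak. Slc2a2, a glucose transporter of liver and pancreas, was at 58.5 and 55.0, Zfp750, a factor of the epidermis, at 51.3 and 52.6, and Tmem132d at 44.3 and 53.8, with no Myc peak at any of the 3. Oca2, a melanosome protein, was at 58.1, 76.1, 0 and 0.759, and Tnfrsf13b, a B cell receptor, at 50.9, 49.5, 5.65 and 0. Eci3 and 4933417A18Rik took their Input values, 54.9 and 58.01, from the same peak.

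Single regions with the widest gaps lay at other places. An exonic region of Cd101, a surface protein of myeloid and T cells, was at 78.6 and 83.5 in Input with no Myc peak. A region of Fmn1, a formin, within 3 kb of an annotated transcript's start, was at 85.7 and 79.5 in Input with no Myc peak. An intergenic region near Tecrl, a gene linked to inherited arrhythmia, spans chr5:83384965-83385407 and was at 77.5 and 78.6 in Input with no Myc peak. In the higher direction, a promoter region of Hnrnpl, a splicing factor, at chr7:28811216-28811550 was at 67.5 and 62.1 in Myc with no Input peak.

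The 1 Mb windows given here are those with the largest difference in number between regions of Myc alone and of Input alone, over all peaks. Over the whole genome, 2.55% of regions were of Myc alone and 2.05% of Input alone. The 1 Mb window at chrX:50000001-51000000 held 12 regions of Myc alone and 0 of Input alone among 36, the window at chr7:104000001-105000000 held 9 and 0 among 22, and the window at chr1:61000001-62000000 held 8 and 0 among 77. In the chromosome 7 window, 3 of the Myc-alone regions overlapped Trim30d. For Input alone, the window at chr15:86000001-87000000 held 9 regions against 0 of Myc alone among 109, chr7:49000001-50000000 held 9 against 1 among 141, with 6 of the 9 in Nav2, and chr2:167000001-168000000 held 7 against 0 among 193. Matched for peak number, Myc-alone and Input-alone regions numbered 12 and 1 in the X window, 4 and 0 in that of Trim30d, 4 and 1 on chromosome 1, 0 and 6 on chromosome 15, 3 and 7 in that of Nav2 and 1 and 9 on chromosome 2.

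The X chromosome differed from the autosomes in its share of Myc-alone regions. At the equal number of peaks, 111 of 1971 X regions (5.63%) were of Myc alone and 49 (2.49%) of Input alone, whereas autosomes gave 3.78% and 3.63%. By rank X did not stand out, with 19.0% of its regions higher and 18.3% lower, beside 20.7% and 19.7% on autosomes. Peaks on X numbered 1355 and 1316 in Input and 1442 and 1468 in Myc. Firre, a long noncoding RNA gene that lies in the leading X window, held 10 regions of Myc alone over all peaks, and its peaks numbered 7 and 2 in Input and 17 and 22 in Myc. The gene 4933407K13Rik, at the Dxz4 macrosatellite, held 7, with peaks numbering 1 and 1 in Input and 9 and 8 in Myc. Xist, the RNA that coats the inactive X, held 1, with peaks numbering 1 and 0 in Input and 3 and 2 in Myc. With the peak number made equal, Firre held 11 regions of Myc alone, 4933407K13Rik 2 and Xist 0. Peaks then numbered 4 and 2 in Input and 16 and 18 in Myc at Firre, 1 and 1 against 7 and 4 at 4933407K13Rik, and 0 and 0 against 1 and 1 at Xist. Firre and Dxz4 are known to behave differently on the active and the inactive X. Peaks on the Y chromosome, at the equal number, numbered 8 and 11 in Input and 14 and 14 in Myc. Of 20 Y regions, 5 were of Myc alone and 1 of Input alone. The part of the hearts' sex in these X and Y values was not tested.

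**Figure D4:**
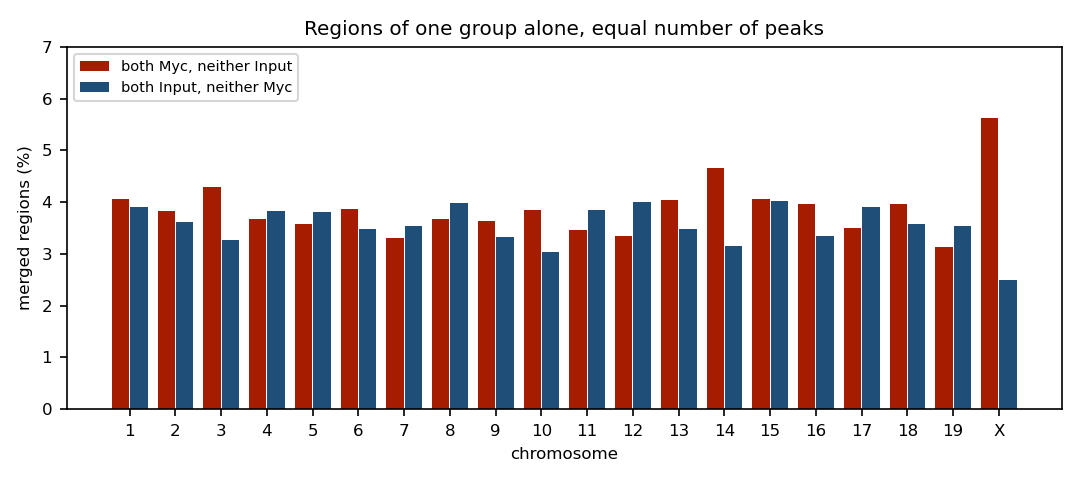
Bars give the percent of each chromosome's merged regions with peaks in both Myc and neither Input library (red) or in both Input and neither Myc library (blue), at the equal number of peaks. The X bars, 5.63% and 2.49%, lie further apart than those of any autosome.

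Sun1 held regions of Myc alone at its exons. The gene, the source of the nuclear membrane tag, held 3 regions of Myc alone over all peaks, and the summits of all 3 lay in its coding exons. With equal peak numbers 2 regions were of Myc alone, with best percentiles of 38.8 and 35.8 in the Myc libraries, and 1 was of Input alone. By rank, 2 of the 9 Sun1 regions were then higher in Myc and 3 lower. The native locus was open throughout, with Sun1's strongest peak at 98.7, 98.6, 98.2 and 98.1. At Gt(ROSA)26Sor, the insertion locus, 2 regions were found and neither was of 1 group alone, with best percentiles of 99.2 and 98.9 in Input and 97.6 and 96.9 in Myc. The PCM1 libraries, labelled as wild type, had peaks at 2 (replicate 1) and 3 (replicate 2) of these Sun1 regions.

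The sequence of the alone regions differed in base composition. Windows of 200 bases around the summits of Myc-alone regions had a mean GC of 46.6%, against 51.9% for Input alone and 51.7% for all merged regions. The share of bases in repeats was 13.1% and 9.39%. The letters of MEF2, an activator of muscle genes, were in 15.8% of Myc-alone windows (95% Wilson interval 14.7 to 17.0) and 8.45% of Input-alone windows (7.55 to 9.46), but at like GC the shares came together, with 16.3% and 14.7% at 40 to 50% GC and 5.03% and 5.36% at 50 to 60% GC. These intervals cover counting error over regions only, and regions of 2 libraries are not replicates.

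The letters of MEIS/PBX, NKX and GATA kept their order in both GC classes. For ETS and the E-box, only part of the GC classes is given. MEIS/PBX letters, read by homeodomain cofactors in the heart, were in 16.1% of Myc-alone windows and 24.0% of Input-alone windows, in 17.5% and 21.7% at 40 to 50% GC, and in 16.7% and 27.1% at 50 to 60% GC. NKX letters, the core that NKX2-5 reads, were in 41.0% and 44.9%, with 41.9% and 51.1% at 40 to 50% GC and 40.1% and 43.5% at 50 to 60% GC, where the intervals overlapped. GATA letters were in 12.3% and 14.0%, with 13.1% and 18.9% at 40 to 50% GC and 7.26% and 12.1% at 50 to 60% GC. For ETS, whose factors include those of endothelium and many promoters, the order was the reverse, with 4.21% and 2.86% overall and 8.13% and 3.42% at 50 to 60% GC. The MyoD-type E-box was in 15.7% and 21.8% but in 14.9% and 15.1% at 40 to 50% GC.

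**Figure D5:**
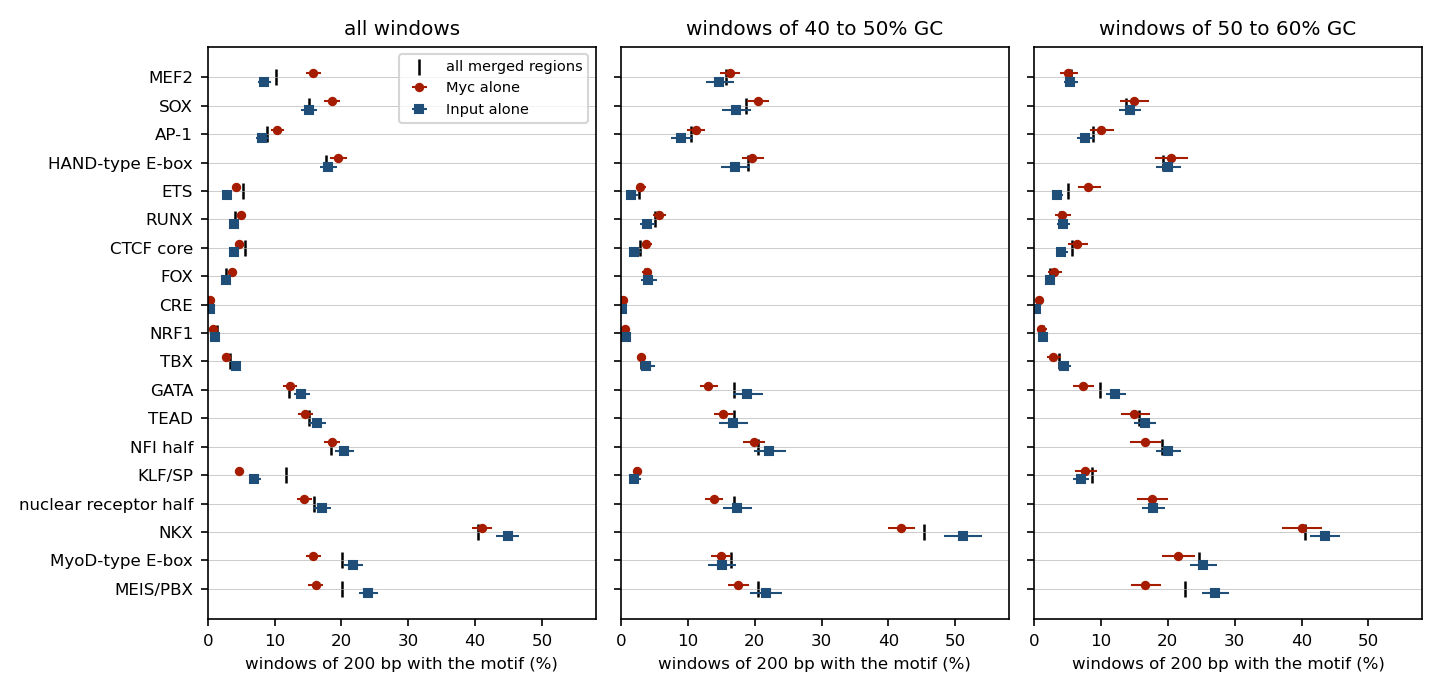
Points give the percent of 200 bp windows with each motif for regions of Myc alone (red) and Input alone (blue), with 95% Wilson intervals, and bars mark all merged regions, for all windows and within 2 classes of GC content. MEF2 lies apart at left and together in the GC classes, while MEIS/PBX lies apart in all 3 panels.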

How the data were processed

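Omni-ATAC libraries of whole P1 mouse hearts were analysed from the peak lists that the authors deposited, 1 for each library. Per the study's methods, reads were checked with FastQC (0.11.5), trimmed, aligned to mm10 with Bowtie2 (2.3.3.1), had duplicates marked with Picard (2.2.1), lost blacklisted regions and were shifted for the Tn5 insertion, and peaks were called in each library on its own with MACS2 (2.1.0.20160309) at a q threshold of 0.05. The deposited lists give each peak's fold enrichment (a ratio over background), its −log10 p and −log10 q, and a score made from the latter. No read counts were used. The background pileup, a measure of depth, was worked back from each peak's fold and p, and so an unequal depth could be matched only by an equal number of peaks, not of reads.

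Peaks were merged over the 4 libraries with bedtools (2.31.1), where touching or overlapping by 1 bp sufficed, and a library had a peak in a region when any of its peaks overlapped it. Percentile ranks used −log10 q within the strongest 75336 peaks. Presence was counted over all peaks, ranks and genes at the equal number. Genes and TSSs were those of GENCODE M21 (GRCm38), promoters reached 3 kb, and tRNA genes and sequence came from RefSeq for GRCm38. Motifs were searched as letters on both strands, and shares have Wilson intervals at 95%. Python 3.11.15 with numpy 2.4.6, pandas 2.3.3, scipy 1.17.1 and matplotlib 3.10.9 was used. The steps were tested on simulated peak lists.

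The comparison, its 21 gene lists and its motifs were chosen with earlier results of these data known. Genes named are those of the study's markers, up to 4 per direction and list with the widest gap between the nearest libraries, and the 8 genes, 4 promoter and 4 other regions and 3 windows per direction with the widest gap, or largest difference in number, overall. Genes outside that rule, the remaining genes of the sarcomere, mitosis and cardiac transcription factor lists, further genes of other lists, and the tRNA, X and transgene loci, were named after their values were seen. A few genes and sequences that this rule picks are not reported here.

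Alternatives were all peaks against the equal number, ranking by fold, other gene windows, the number of peaks, a gap of 10 points, a promoter of 1 kb, windows of 400 bp, a q of 0.01, 50% coverage, a merge gap of 100 bp and leaving out each library.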

Additional observations from a re-analysis of the deposited data

Results flagged for a closer look

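Signal appeared in libraries that the comparison does not use. Of the 3 regions of Sun1 with peaks in both Myc and neither Input library, 2 held a peak in PCM1 replicate 1 and 3 held a peak in PCM1 replicate 2. These summits lie in coding exons of Sun1, the gene whose coding sequence the transgene carries, while the labels of both PCM1 libraries give wild-type hearts and both Input libraries, also wild type, had no peak there. At the equal number of peaks, 2 Sun1 regions were of Myc alone, and both held a peak in each PCM1 library, while 1 region was of Input alone. The origin of the PCM1 peaks was not tested.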

How the results depend on the processing

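No paired analysis was possible because no comparison comes from a fitted test, and the labels tie no Input library to a Myc library. The counts of regions of 1 group alone stayed within 1.5 times of the main count at the equal number of peaks, at q 0.01, at 50% coverage and with a merge gap of 100 bp. With a gap of 10 points required, regions numbered 7566 higher and 7789 lower, genes 597 higher and 343 lower, and the lists kept 2 sarcomere, 1 calcium and 0 energy genes lower and 1 mitosis gene higher, as follows from a stricter rule. Counting peaks per gene in place of ranking them gave 959 genes higher and 1210 lower, 5 sarcomere and 2 energy genes lower and 0 mitosis genes higher. With all peaks, 2005 genes were lower, and with peaks within 1 kb of a TSS 2408, with 6 calcium genes lower. Ranked by fold, 4426 genes were higher and 3704 lower, where the main setting gave 6513 and 3623.

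The median of the sarcomere list was -5.14 points with all peaks, -20.2 by fold, -5.88 within 1 kb of a TSS, -5.75 within 10 kb of the gene and -0.50 by number of peaks. That of the calcium list was -2.09, that of the energy list -2.55 and that of the mitosis list 3.65 with all peaks. Within 1 kb of a TSS the calcium and energy medians were -1.12 and -1.56, and by number of peaks they were -1.50 and 0. The mitosis median was 2.93 by fold, where 5 of its genes were higher, 2.38 within 10 kb and 0 by number of peaks. Of tRNA regions, 57.1% were higher with all peaks, 39.1% by fold and 28.2% with a gap of 10 points, and 10.9% and 1.28% were lower by fold and with the gap. These tRNA alternatives were chosen after seeing the data. In windows of 400 bp, the share with a motif differed between Myc alone and Input alone by -0.012 percentage points for GATA, 14.8 for MEF2 and -8.18 for the E-box. The cause of these moves was not tested.

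A set of 96 genes was followed, which leaves out some genes named above, among them Actn2 and Ryr2. In this set the mean difference kept its sign in 95 with all peaks, 89 within 10 kb and 87 by fold. Within 1 kb of a TSS, where a gene with no peak gives 0, it kept its sign in 62. By fold, the reversed differences were -4.30 points for Myom1, -2.83 for Prox1, -0.0929 for Hand2, -3.07 for Tbx2, -6.08 for Nr2f1, 5.89 for Fbln1, -5.82 for Tbx18, -1.83 for Cd68 and -1.48 for Aurkb. Within 10 kb they were -0.608 for Hand2, -4.15 for Col1a1, 5.32 for Bnc1, -5.60 for Spi1, -0.974 for Klf1, -3.77 for E2f2 and -0.0166 for Aurkb. Within 1 kb of a TSS they were 2.82 for Hcn4, 3.29 for Gja5, 2.95 for Ckm, 1.66 for Pecam1, 9.26 for Eng, 46.0 for Smtn, 21.04 for Krt19, -47.0 for Spi1, 13.2 for Tal1, -2.24 for Ccnd2 and 14.8 for Upk1b. The cause of these reversals was not tested.

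With 1 library left out, a group of 1 carries no spread and fewer libraries must agree, so counts rose by construction. Regions of Myc alone ranged from 4461 to 23063, the latter without Input replicate 1, the deepest library, and regions of Input alone from 5973 to 28567, the latter without Input replicate 2, the shallowest. Without Myc replicate 1 or 2, regions of Myc alone numbered 14610 and 14664 and regions of Input alone 5973 and 6454, and without Input replicate 1 the latter numbered 5975. Regions higher by rank ranged from 27298 to 37383 and lower from 27940 to 37357, genes higher from 7802 to 8628 and lower from 4980 to 5166. The list medians ranged from -8.59 to -6.62 for the sarcomere, -4.34 to -3.68 for calcium, -5.27 to -2.88 for energy and 4.09 to 4.52 for mitosis, with 14 to 15, 11 to 12 and 13 to 14 genes lower and 9 to 11 higher. tRNA regions were higher in 74.4% to 83.1% and lower in 7.69% to 9.09%. The difference in share between Myc alone and Input alone, -2.45 points for promoters, -5.20 for introns and 9.55 for distal intergenic regions, ranged from -4.50 to -0.39, from -5.33 to -1.96 and from 6.46 to 7.65.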
